A study of Mus musculus with 6 samples.

Results

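The genes of the cytosolic ribosome were followed through 3 populations of tumor cells. They were taken as every gene whose symbol begins with Rpl or Rps, apart from the Rps6k kinases and symbols marked as pseudogenes, which left 83 of the 14897 genes measured. Of these, 34 symbols begin with Rps, for the small 40S subunit, and 49 with Rpl, for the large 60S subunit. *Fau* and *Gnb2l1* also encode ribosomal proteins, but their symbols lie outside this rule, whereas *Rps19bp1* lies inside it and encodes a nucleolar binding partner of Rps19 and regulator of SIRT1 rather than a subunit. Mammary tumors of FVBN mice, driven by the polyoma virus middle T antigen under the MMTV promoter, were dissociated and sorted into CD29hi CD61+ breast cancer stem cells (BCSCs, P1), ALDH+ BCSCs (P2) and the remaining cells, called bulk cells or non-CSC (P0). All groups therefore carry the same transgene, which the MMTV promoter drives chiefly in mammary epithelium, and no treatment was given. The ages of the mice are not given in the sources used here. The same 2 tumors gave all 6 libraries, so n = 2 in each population and the tumor number pairs them. Whether both tumors grew in 1 mouse is not given in the labels, and p-values measure only the spread between these libraries. Throughout, a pair of values names tumor 1 first and tumor 2 second.

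Ribosomal proteins assemble with ribosomal RNA in the nucleolus into the 40S subunit, which reads the mRNA, and the 60S subunit, which joins amino acids. Their mRNAs are short and abundant, and most are TOP mRNAs, which begin with a C followed by an unbroken stretch of pyrimidines (C or T in the gene). Through this 5' terminal oligopyrimidine tract, LARP1 and the mTOR pathway set how much of the mRNA is translated, while MYC and ETS family factors are known to drive its transcription. Growing tumor cells need many ribosomes, and the poly(A) RNA sequenced here measures the level of these mRNAs, not their translation.

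The starts of these genes are shown because such mRNAs are known for their TOP tract. RefSeq promoter windows (GRCm38.p6) were found for 63 of the 83 genes by gene ID, in 74 windows that each hold 250 bases before the annotated start and 50 from it on. The 5 windows that follow have a tract and belong to genes with high values in ALDH+ cells. They are written 5' to 3' from 45 bases before the start to 15 bases into the transcript, with the tract in capitals.
Rps10 (chr17:27635230-27635289, minus strand): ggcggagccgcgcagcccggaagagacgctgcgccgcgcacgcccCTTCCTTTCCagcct
Rplp2 (chr7:141447606-141447665, plus strand): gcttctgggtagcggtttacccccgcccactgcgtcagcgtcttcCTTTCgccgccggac
Rpl14 (chr9:120571472-120571531, plus strand): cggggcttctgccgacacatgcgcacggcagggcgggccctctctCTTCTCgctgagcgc
Rpl15 (chr14:18270972-18271031, minus strand): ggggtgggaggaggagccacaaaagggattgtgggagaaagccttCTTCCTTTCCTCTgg
Rpl28 (chr7:4792920-4792979, plus strand): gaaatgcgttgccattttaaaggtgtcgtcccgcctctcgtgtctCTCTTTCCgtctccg

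A tract of C followed by at least 4 C or T bases stood at the annotated start of 14 of the 63 genes (22.2%), against 291 of 9698 other genes that passed the filter on low values and 3.01% of all 27025 genes with a window. None of 68 mitochondrial ribosomal protein genes had it. A looser feature, a run of at least 8 C or T within 25 bases on either side of the start, was present in 32 of the 63 (50.8%) and in 22.4% of the other filtered genes. RefSeq starts can lie some bases away from the start used in a cell, which the strict search does not allow for. The 4 windows below carry no tract at the annotated start, and are those of *Rpl13a* and *Rps13*, with high values in ALDH+ cells, and of *Rpl12* and *Rpl5*, with lower ones.
Rpl13a (chr7:45128731-45128790, minus strand): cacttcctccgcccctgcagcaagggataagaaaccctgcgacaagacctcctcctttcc
Rps13 (chr7:116334176-116334235, minus strand): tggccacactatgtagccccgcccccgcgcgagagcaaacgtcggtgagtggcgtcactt
Rpl12 (chr2:32961667-32961726, plus strand): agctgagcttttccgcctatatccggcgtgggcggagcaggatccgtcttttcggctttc
Rpl5 (chr5:107900483-107900542, plus strand): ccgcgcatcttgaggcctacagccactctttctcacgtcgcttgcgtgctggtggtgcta

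The core of the ETS family site, CTTCCG on either strand, lay somewhere in the window of 43 of the 63 genes (68.3%), and in 55.9% of the mitochondrial ribosomal protein genes, 34.9% of the other filtered genes and 18.8% of all genes with a window. In the *Rps10* window it reads as cggaag on the printed strand. AAGATGG, the core of YY1-type sites, was found in 10 of the 63 genes (15.9%) against 8.29% of the other filtered genes. These are matches of letters and not measured binding sites.

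Summed over the 83 genes, the level was lowest in bulk cells and highest in ALDH+ BCSCs within each tumor, and it was higher in tumor 2 than in tumor 1 in each population. RPKM are reads scaled to the length of the gene and to the total of the library, so they compare genes per length. The summed RPKM was 21234 and 31452 in bulk cells, 27441 and 33981 in P1, and 30330 and 40485 in ALDH+ cells. As means, P0 had 26343 ± 7225 RPKM, P1 30711 ± 4624 and P2 35408 ± 7181 (SD, n = 2 each), so the populations overlapped unless compared within a tumor. P2 was 1.43 and 1.29 times P0, P1 was 1.29 and 1.08 times P0, and P1 was 0.905 and 0.839 times P2. Tumor 2 was 1.48 times tumor 1 in bulk cells, 1.24 times in P1 and 1.34 times in ALDH+ cells, and the value for bulk cells exceeded each fold between populations within a tumor. Both subunits had this order, since the Rps sum of P2 was 1.45 and 1.30 times that of P0 and the Rpl sum 1.41 and 1.28 times. With size factors by median of ratios in place of library totals, the sums over the 83 genes kept the order of the populations. P2 was then 1.432 and 1.267 times P0, and P1 was 1.162 and 1.065 times P0. Tumor 2 was then 1.411 times tumor 1 in bulk cells, below the 1.432 of P2 to P0 in tumor 1. In bulk samples, more ribosomal protein mRNA per cell and more cells of a type rich in it cannot be told apart.

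**Figure D1:**
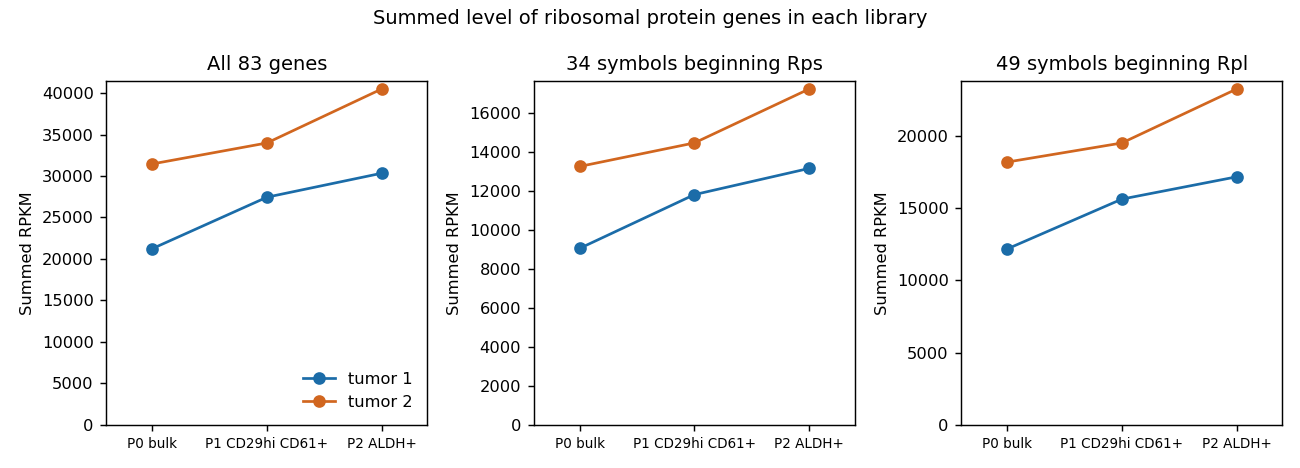
Summed RPKM (y axis, from 0) of all 83 genes, of the 34 Rps symbols and of the 49 Rpl symbols in P0, P1 and P2 (x axis), with 1 point for each library and lines joining the libraries of a tumor. Within each tumor the sum stands lowest in P0 and highest in P2, while P0 of tumor 2 (31452) lies above P2 of tumor 1 (30330).

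Of the reads recovered over all genes measured, the 83 genes took 1.71% in bulk cells of tumor 1 (95% Wilson interval 1.71% to 1.72%) and 2.48% in bulk cells of tumor 2 (2.47% to 2.49%). The share was 2.23% and 2.69% in P1 and 2.35% and 3.07% in ALDH+ cells, with intervals as narrow, which cover counting error only. These recovered reads summed to 19037070 to 48008802 in a library, where a read that matches several genes may be counted repeatedly. Genes without any read numbered 3290, 1947 and 3904 in bulk cells, P1 and P2 of tumor 1 against 446, 360 and 759 in tumor 2. All 83 genes passed the filter of 1 RPKM in at least 2 libraries, as did 12520 genes in all, and 82 had at least 1 RPKM in every library. Between 73 and 78 of the 83 stood among the 10% of filtered genes with the highest RPKM, according to the library. Their median RPKM ran from 210.2 in bulk cells of tumor 1 to 409 in ALDH+ cells of tumor 2, where the median filtered gene had 7.95 and 9.13.

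The sorted labels were set beside marker genes. Luminal markers were abundant in all libraries (summed RPKM of 14 genes, 11357 to 20304). The summed basal markers were lowest in bulk cells (303 and 349 for 10 genes), at 666 and 447 in ALDH+ cells and highest in P1 (915 and 971). Most of these basal sums came from *Krt14* and *Krt17*. Of the 8 basal markers that passed the filter, 8 were higher in P1 than in bulk cells in both tumors. In ALDH+ cells 3 were higher than in bulk cells in both tumors and 1 was lower. *Aldh1a3*, an aldehyde dehydrogenase, was at 146 and 51.6 RPKM in bulk cells and at 693 and 182 in ALDH+ cells. *Itgb1*, which encodes CD29, was at 182 and 251 RPKM in bulk cells and at 258 and 217 in P1, and *Itgb3*, which encodes CD61, at 17.6 and 9.29 against 13.2 and 13.9, so neither mRNA was higher in P1 in both tumors. The summed RPKM of 10 fibroblast markers was 1.68 and 6.33 in bulk cells, 8.11 and 87.4 in P1 and 74.8 and 424.5 in ALDH+ cells, the same order as that of the ribosomal protein genes, and 7 of the 10 had no reads in at least 1 library. Of 12 macrophage markers 9 were in the table, and their summed RPKM was 306 and 215 in bulk cells, 216 and 295 in P1 and 540 and 421 in ALDH+ cells, highest in ALDH+ cells of each tumor. Most of it came from *Cd14*, at 302 and 196 in bulk cells and 523 and 401 in ALDH+ cells, while *C1qa*, *C1qb* and *C1qc* had no reads in tumor 1 and at most 3.38 RPKM in tumor 2. Of 15 lymphocyte markers 3 were in the table, with a sum of at most 3.17 RPKM in any library. The part of the fibroblast, macrophage and basal signals in the ribosomal protein values was not tested.

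Against bulk cells, ALDH+ BCSCs had higher levels of most ribosomal protein genes. The median log2 ratio of P2 to P0 over the 83, on the log2(RPKM + 1) scale, was 0.68 in tumor 1 and 0.31 in tumor 2, against 0.00 and 0.04 over all filtered genes. In both tumors P2 was higher for 56 of the 83 (67.5%, against 24.5% of all filtered genes), and it was lower for 5 (6.02%, against 22.9%). Both P2 libraries lay above both P0 libraries for 32 of them (38.6%, against 14.2%), and below both for 1, *Rpl12* (1.20%, against 13.0%). No single gene passed the test, since limma gave 0 of the 83 and 0.00% of all filtered genes an adjusted p under 0.05. The lowest adjusted p among the 83 was 0.985. Unadjusted, 10 were higher with p under 0.05 (12%, against 2.78%) and 0 were lower (against 1.13%). With the tumor as a replicate block these were 27 (32.5%, against 4.19%) and 1 (1.20%, against 1.93%), and the lowest adjusted p was 0.644. Limma voom on recovered reads also gave 0 at the adjusted threshold, with 18 higher (21.7%, against 2.87%) and 0 lower (against 1.78%) unadjusted. Without the P0 library of tumor 1, in which the summed level was lowest, the median log2 fold change fell from 0.52 to 0.12, beside -0.10 over all genes. That fit set ALDH+ cells of both tumors against bulk cells of tumor 2 alone, so the difference between tumors enters it. Within tumor 2 the median ratio was 0.31. The ratios of the 2 tumors had a correlation of 0.06 across the 83 genes, which are not independent replicates, so the tumors shared the direction of the group but not the order of the genes within it.

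**Figure D2:**
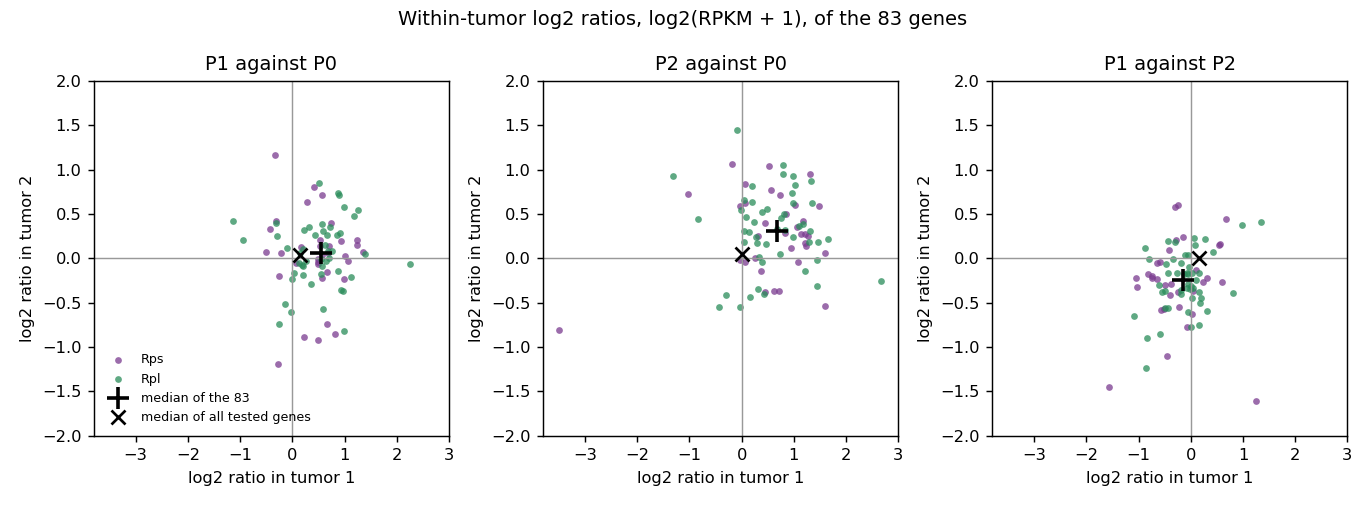
Log2 ratio of each of the 83 genes in tumor 1 (x axis) and tumor 2 (y axis) on the log2(RPKM + 1) scale, 1 panel for each pair of populations, with Rps and Rpl symbols in 2 colors. The median of the 83 (plus sign) lies at 0.68 and 0.31 for P2 against P0, where the median of all filtered genes (cross) lies at 0.00 and 0.04.

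Among 40S genes, *Rps10* had one of the largest differences. Its protein lies in the head of the subunit and is ubiquitinated when ribosomes stall. *Rps10* was at 181 and 252 RPKM in bulk cells, 220.1 and 393 in P1 and 453 and 490.2 in ALDH+ cells. Both P2 libraries were above all others, and the log2 fold change to P0 was 1.14 (SE 0.38, adjusted p = 0.985 by limma). *Rps13* encodes a protein of the subunit's body and was at 124 and 306 RPKM in bulk cells, 295 and 354 in P1 and 349 and 462 in ALDH+ cells, or 1.04 higher in ALDH+ cells on the log2 scale (SE 0.45). *Rps19*, mutated in Diamond-Blackfan anemia in humans, was at 235 and 332 RPKM in bulk cells, 347 and 544 in P1 and 424 and 471 in ALDH+ cells, so that both BCSC populations lay above the bulk cells.

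*Rps6*, the substrate of the S6 kinases, did not share this pattern in both tumors. It was at 356 and 664 RPKM in bulk cells, 675 and 763 in P1 and 750.0 and 643 in ALDH+ cells, so that P2 was above P0 in tumor 1 alone. *Rps25*, needed by some viral internal ribosome entry sites, was at 109 and 353 RPKM in bulk cells, 220.2 and 360 in P1 and 333 and 369 in ALDH+ cells. Its tumor 2 libraries were nearly level, while in tumor 1 the bulk library was lowest and the P1 library lay between it and the other 4. *Rps3*, which also has a role in DNA repair, was at 99.7 and 161 RPKM in bulk cells, 162 and 177 in P1 and 137 and 213 in ALDH+ cells. *Rpsa*, the gene of the laminin receptor precursor, was at 112 and 185 RPKM in bulk cells, 181 and 194 in P1 and 235 and 237 in ALDH+ cells, above P0 in both tumors. *Rps27a* encodes a ribosomal protein fused to ubiquitin and was at 490.1 and 708 RPKM in bulk cells, 820.1 and 932 in P1 and 515 and 687 in ALDH+ cells, which makes P1 the highest population in each tumor. 

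In the 60S subunit, the acidic stalk proteins bind the elongation factors and stimulate their GTPase. *Rplp2* was at 367 and 580.0 RPKM in bulk cells, 684 and 949 in P1 and 920.2 and 1062 in ALDH+ cells. The order P0, P1, P2 held in each tumor, with a log2 fold change of 1.10 for P2 (SE 0.39, adjusted p = 0.985 by limma) and 0.80 for P1 (SE 0.39). *Rplp1* was at 389 and 947 RPKM in bulk cells, 582 and 1173 in P1 and 1072 and 1078 in ALDH+ cells, and its P0 library of tumor 1 was the lowest. *Rplp0*, which anchors the stalk, was at 652 and 746 RPKM in bulk cells, 603 and 806 in P1 and 689 and 1033 in ALDH+ cells, with log2 ratios of P2 to P0 of 0.08 and 0.47, so the 3 stalk genes did not differ by the same amount.

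*Rpl36* was at 104 and 134 RPKM in bulk cells, 238 and 188 in P1 and 208 and 256 in ALDH+ cells. It was 0.96 higher in ALDH+ cells (SE 0.32, unadjusted p = 0.0158 by limma) and 0.83 higher in P1 (SE 0.32, unadjusted p = 0.0292), and all 4 BCSC libraries lay above both bulk libraries. *Rpl13a*, whose protein is known in human monocytes as part of a complex that silences inflammatory mRNAs, was at 222 and 244 RPKM in bulk cells, 441 and 366 in P1 and 435 and 409 in ALDH+ cells. It too lay above bulk cells in all 4 BCSC libraries, by 0.86 in ALDH+ cells (SE 0.31) and 0.78 in P1 (SE 0.31) on the log2 scale. *Rpl29* was at 53.0 and 50.8 RPKM in bulk cells, 42.6 and 67.5 in P1 and 92.2 and 107 in ALDH+ cells, and *Rpl17*, whose protein lines the peptide exit tunnel, was at 224 and 363 in bulk cells, 254 and 344 in P1 and 456 and 643 in ALDH+ cells. For both genes P2 stood apart while P1 and P0 overlapped. *Rpl14* (147 and 230 RPKM in bulk cells, 293 and 354 in ALDH+ cells), *Rpl15* (65.3 and 115 in bulk cells, 163 and 142 in ALDH+ cells) and *Rpl28* (216 and 485 in bulk cells, 549 and 750 in ALDH+ cells) had P2 above both P0 libraries as well. *Rpl38*, known in mice for its part in the translation of Hox mRNAs, was at 315 and 366 RPKM in bulk cells, 518 and 469 in P1 and 532 and 502 in ALDH+ cells, with all 4 BCSC libraries above both bulk libraries.

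**Figure D3:**
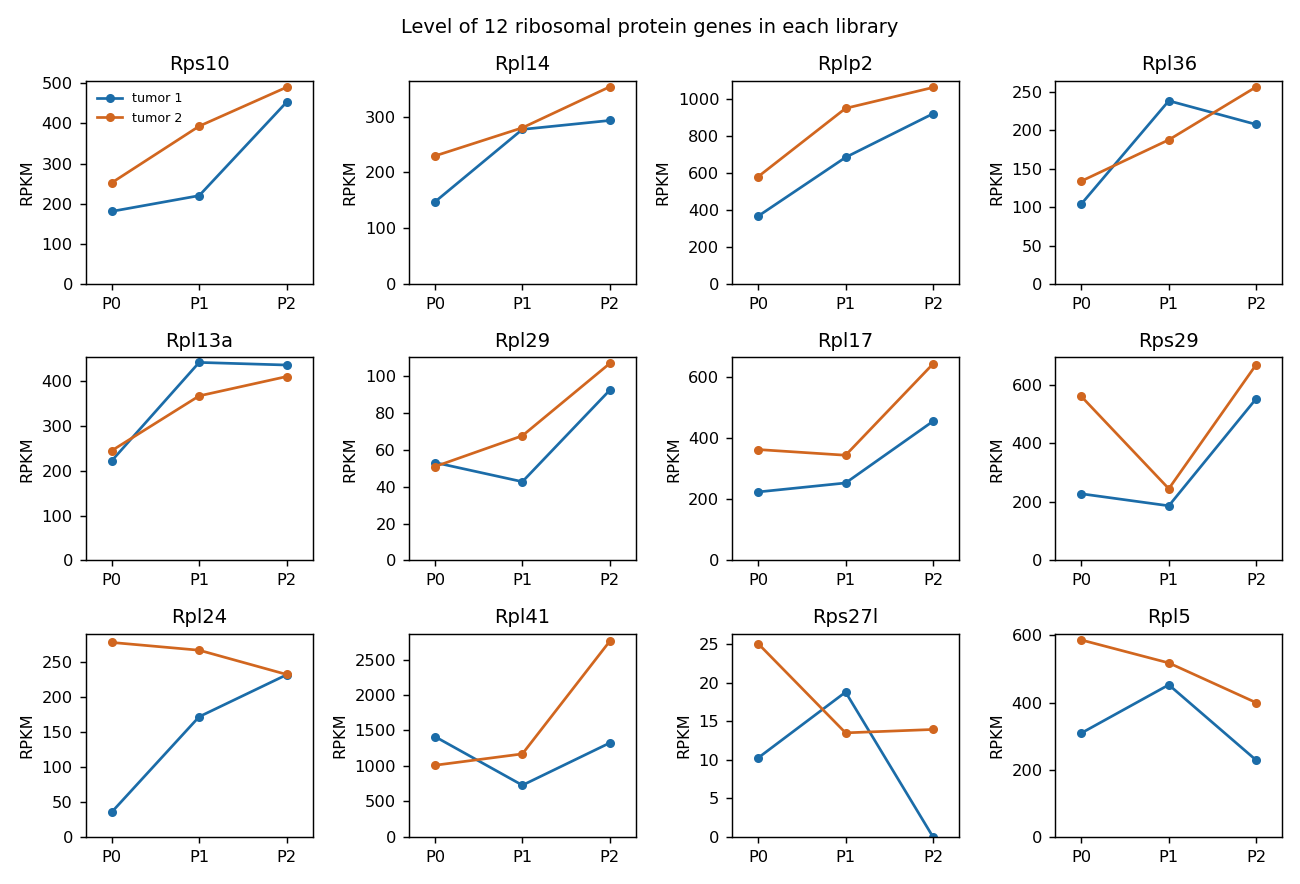
RPKM (y axis, from 0, scaled to each gene) of 12 ribosomal protein genes in P0, P1 and P2 (x axis), 1 point for each library and 1 line for each tumor. *Rps10*, *Rpl14*, *Rplp2*, *Rpl36*, *Rpl13a*, *Rpl29* and *Rpl17* have both P2 points above both P0 points, while for *Rpl24* the P0 point of tumor 1 (35.5) stands far below the other 5 (172 to 278).

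A minority had other patterns. *Rpl24* encodes a protein of a bridge between the subunits and had the largest log2 fold change of the 83 in ALDH+ cells (1.21) and in P1 (1.09), yet with an SE of 0.79. It was at 35.5 and 278 RPKM in bulk cells, 172 and 267 in P1 and 232 and 232 in ALDH+ cells, so the value rests on the P0 library of tumor 1. Without that library its log2 fold change was -0.26 in ALDH+ cells. *Rpl5* and *Rpl11* encode the proteins of the 5S RNP, which can bind Mdm2 and so stabilize p53. *Rpl5* was at 309 and 586 RPKM in bulk cells, 453 and 518 in P1 and 228 and 400 in ALDH+ cells, lower in ALDH+ cells than in bulk cells and P1 of both tumors, whereas *Rpl11* was at 204 and 660.0 in bulk cells, 376 and 596 in P1 and 474 and 597 in ALDH+ cells. *Rpl12*, at the base of the stalk, was at 711 and 831 RPKM in bulk cells, 647 and 584 in P1 and 698 and 569 in ALDH+ cells, and *Rpl37a* at 283 and 411, 237 and 246, and 229 and 309.7, with P0 the highest in each tumor. *Rpl36a* and *Rpl27a* differed in opposite directions between the tumors, with log2 ratios of P2 to P0 of -0.83 and 0.44 and of -1.31 and 0.93. *Rpl10a* showed little difference in level, at 161 and 192 RPKM in bulk cells, 175 and 185 in P1 and 176 and 235 in ALDH+ cells.

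*Rps27l*, a paralog of *Rps27* known as a p53 target, had no read in ALDH+ cells of tumor 1. Its reads were 172 and 226 in bulk cells, 418 and 135 in P1 and 0 and 123 in ALDH+ cells, and its RPKM 10.2 and 25.04, 18.8 and 13.5, and 0 and 13.9. A count of 3 reads in that library would be 0.272 RPKM, so the gene was at least 37.6-fold lower there than in bulk cells of tumor 1, while in tumor 2 it was at 13.9 against 25.04 RPKM. Of 4290 genes with at least 10 RPKM in the other 5 libraries, 17 (0.396%) had no reads in ALDH+ cells of tumor 1, the library with the most genes without reads. Leaving out P2 of tumor 2, and so resting on that library alone, gave the only call among the 83, with *Rps27l* higher in P1 than in ALDH+ cells at an adjusted p of 0.0489 by limma. In a list of 8 genes, *Trp53* and p53 targets, 3 were lower in ALDH+ cells than in bulk cells in both tumors and 1 was higher. Over all filtered genes 22.9% were lower and 24.5% higher. The median log2 ratios of the list were -0.745 and 0.134. *Mdm2* (54.7 and 64.2 RPKM in bulk cells, 31.5 and 54.8 in ALDH+ cells) and *Ccng1* (46.5 and 62.6, 26.5 and 36.1) were lower in both tumors. *Cdkn1a* was at 237 and 202 RPKM in bulk cells and at 87.9 and 218 in ALDH+ cells, lower in tumor 1 alone.

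Against bulk cells, CD29hi CD61+ BCSCs differed mainly in tumor 1. The median log2 ratio of P1 to P0 over the 83 genes was 0.55 in tumor 1 and 0.06 in tumor 2, against 0.15 and 0.04 over all filtered genes. P1 was higher in both tumors for 37 (44.6%, against 29.2% of filtered genes) and lower in both for 6 (7.23%, against 17.6%). Both P1 libraries lay above both P0 libraries for 20 (24.1%, against 18.7%) and below both for 2, *Rpl37a* and *Rpl12* (2.41%, against 9.88%). Limma gave 0 of the 83 and 0.00% of filtered genes an adjusted p under 0.05. Unadjusted, 2 were higher, *Rpl36* and *Rpl13a* (2.41%, against 1.57%), and 0 were lower (against 0.327%), so this share was near the background. The replicate block gave 7 higher (8.43%, against 2.78%) and 1 lower, *Rps29* (1.20%, against 0.655%). Voom gave 6 higher (7.23%, against 3.29%) and 0 lower (against 1.09%). Without the P0 library of tumor 1 the median log2 fold change was -0.13 in place of 0.29, beside 0.04 over all genes. That fit set P1 of both tumors against P0 of tumor 2 alone, so the difference between tumors enters it. Within tumor 2 the median ratio of 0.06 was small and not reversed.

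Genes with high values in P1 were led by *Rpl24*, *Rpl26*, *Rpl36*, *Rplp2* and *Rpl7a*. *Rpl7a* was at 140 and 232 RPKM in bulk cells, 255 and 388 in P1 and 246 and 330 in ALDH+ cells, with both BCSC populations above both bulk libraries. *Rpl26*, whose protein is known to bind the p53 mRNA, was at 381 and 837 RPKM in bulk cells, 908 and 1218 in P1 and 862 and 1096 in ALDH+ cells. At the other end, *Rps29*, a zinc-binding protein of the 40S head, was at 228 and 561 RPKM in bulk cells, 187 and 245 in P1 and 553 and 670 in ALDH+ cells. *Rps28* was at 113 and 165 RPKM in bulk cells, 131 and 88.7 in P1 and 54.8 and 273 in ALDH+ cells, so its tumors went opposite ways in both BCSC populations.

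Between the BCSC populations, ribosomal protein genes were mostly lower in CD29hi CD61+ than in ALDH+ cells. The median log2 ratio of P1 to P2 was -0.15 and -0.25, against 0.17 and 0.00 over all filtered genes. P1 was lower in both tumors for 43 of the 83 (51.8%, against 21.5%) and higher in both for 9 (10.8%, against 31.0%). Both P1 libraries lay below both P2 libraries for 22 (26.5%, against 12.1%) and above both for 4, *Rps27a*, *Rps3a1*, *Rps24* and *Rpl5* (4.82%, against 18.2%). Limma called 0 of the 83 and 0.00% of filtered genes at the adjusted threshold. Unadjusted, 3 were lower, *Rps29*, *Rpl29* and *Rpl17* (3.61%, against 1.05%), and 0 were higher (against 1.45%). With the replicate block 8 were lower (9.64%, against 1.95%) and 3 higher (3.61%, against 2.55%), and voom gave 4 lower (4.82%, against 1.64%) and 2 higher (2.41%, against 2.12%), the latter near the background. *Rps29* differed most among genes with reads in all libraries, by -1.50 on the log2 scale (SE 0.45, unadjusted p = 0.00990 and adjusted p = 1.00 by limma, 0.636 with the replicate block). Without P2 of tumor 2 the median over the 83 was -0.026 in place of -0.178, and without P2 of tumor 1 it was -0.385. *Rpl41*, a very short basic peptide and the most abundant of the 83 by mean, was at 1414 and 1010 RPKM in bulk cells, 728 and 1170 in P1 and 1325 and 2759 in ALDH+ cells, and *Rps26* at 229 and 369, 241 and 355, and 328 and 763. Their highest value was in ALDH+ cells of tumor 2.

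Next to *Rpl41*, the highest mean levels were those of *Rps18* (1272 RPKM), *Rps2* (1177), *Rpl26* (884) and *Rplp1* (873). *Rps18* was at 1003 and 911 RPKM in bulk cells, 1341 and 1590 in P1 and 880.2 and 1906 in ALDH+ cells, and *Rps2* at 1252 and 849, 1002 and 1135, and 1312 and 1513. *Rps2* was higher in tumor 1 than in tumor 2 in bulk cells only. The lowest means were those of *Rps27l* (13.6 RPKM), *Rps19bp1* (22.6), *Rpl7l1* (26.7), *Rps15a* (33.5) and *Rpl36al* (46.8), of which 4 are paralogs or no ribosomal protein. The recovered length of *Rps15a* was 5136 bases, against a median of 710 for the 83, so its RPKM spreads the reads of a short mRNA over a long gene model. *Rps19bp1* was at 24.4 and 13.9 RPKM in bulk cells, 19.3 and 32.5 in P1 and 23.9 and 21.5 in ALDH+ cells, with no order shared by the tumors.

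Paralogs can let the ribosome differ in composition. *Rpl22l1* over *Rpl22* had a ratio of RPKM of 1.15 and 2.98 in bulk cells, 1.95 and 1.84 in P1 and 2.73 and 1.54 in ALDH+ cells, with no order of the populations shared by the tumors. *Rpl7l1* was at 0.0591 to 0.0899 of the level of *Rpl7* and *Rpl36al* at 0.0462 to 0.233 of that of *Rpl36a*. *Rpl36a* and *Rpl36al* encode near-identical proteins, and whether their reads are shared was not tested.

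Several of these genes share reads with near-identical copies, which makes their single values uncertain. *Rps27* and its retrogene *Rps27rt*, both among the 83, had 1003 and 1003 reads in bulk cells, 1870 and 1870 in P1 and 1557 and 1557 in ALDH+ cells of tumor 1, and in tumor 2 1167 and 1160, 1254 and 1232, and 1293 and 1252. Reads of the pair cannot be told apart in these values, and how such reads were counted is not given in the sources used here. Their windows are shown because the transcribed letters are shared while most of those before the start differ. The longest run in common was 38 bases, from base 2 of *Rps27* and base 1 of *Rps27rt*, and before the start it was 10 bases.
Rps27 (chr3:90213634-90213693, minus strand): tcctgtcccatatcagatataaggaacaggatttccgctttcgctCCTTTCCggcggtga
Rps27rt (chr9:114982725-114982784, minus strand): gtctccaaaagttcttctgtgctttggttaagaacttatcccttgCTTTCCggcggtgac

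*Rpl26* and the pseudogene *Gm15772* had equal reads in all 6 libraries, 7491 in bulk cells of tumor 1 for instance. The copies of *Rpl30*, *Rpl34* and *Rpl14* held 91.5% to 100% of their gene's reads. For some other genes described above the copies held less, with *Rplp2-ps1* at 63.7% to 79.4% of *Rplp2* and *Gm8580* at 23.4% to 47.1% of *Rpl29*. *Gm15421* was at 68.9% to 100% of *Rpl22l1*, which also enters its ratio to *Rpl22*. Whether the reads of these copies are shared was not tested. In all, 17 of the 83 had a listed copy in 20 pairs, down to 0% of the gene's reads for some. Without these 17 and *Rps27rt*, the median log2 fold change of the other 65 was 0.51 for P2 and 0.30 for P1 against P0, a check added after the values were seen. Within tumors, the median log2 ratio of P2 to P0 over the 65 was 0.48 and 0.28, against 0.68 and 0.31 over the 83. The 18 left out had 0.915 and 0.454. For P1 to P0 the 65 had 0.549 and 0.066 and the 18 had 0.536 and -0.028.

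**Figure D4:**
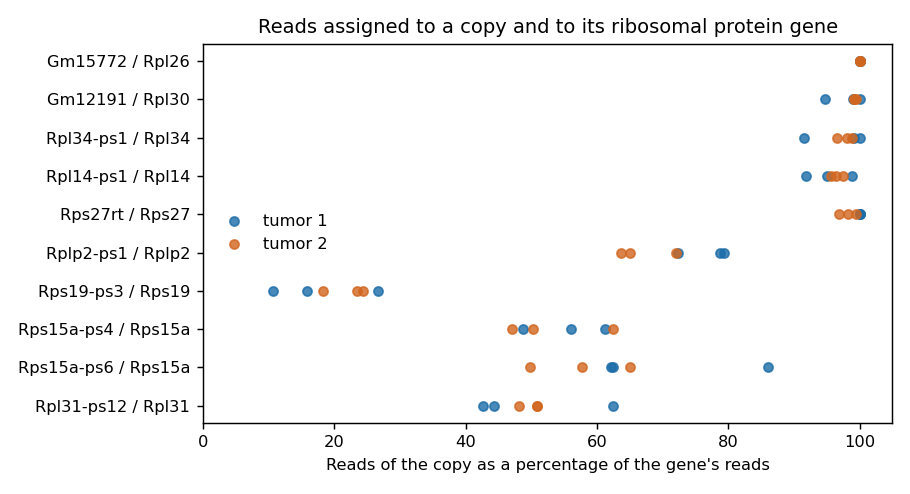
Reads of a copy as a percentage of the reads of its ribosomal protein gene (x axis) for 10 pairs (y axis), 1 point for each library, colored by tumor. The first 5 pairs lie at 91.5% or more in every library, and *Gm15772* lies at 100% of *Rpl26* in all 6.

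Genes that work with the ribosome were compared by lists, and none of their members passed the adjusted threshold. *Fau* was at 62.7 and 77.8 RPKM in bulk cells, 62.8 and 120.2 in P1 and 101 and 158 in ALDH+ cells. *Gnb2l1*, the older symbol of *Rack1*, was at 723 and 716, 728 and 946, and 787 and 1117. Both of these 40S genes outside the symbol rule were higher in ALDH+ cells than in bulk cells in both tumors. The 77 mitochondrial ribosomal protein genes had median log2 ratios of P2 to P0 of 0.53 and 0.26. Those of P1 to P0 were 0.43 and 0.02, and both pairs were close to those of the cytosolic genes. Of the 77, 29 were higher in ALDH+ cells in both tumors, against 56 of the 83 and 24.5% of all filtered genes. However, 21 of the 77 had no reads in at least 1 library, against 1 of the 83. Their P2 to P0 ratios in tumor 1 also spread more widely (SD over genes 2.27 against 0.79).

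Translation factors did not have this pattern. Of 6 elongation factors 1, *Eef1d*, was higher in ALDH+ cells in both tumors (28.1 and 22.1 RPKM in bulk cells, 45.5 and 43.6 in ALDH+ cells), and their median log2 ratios were -0.17 and 0.07. *Eef1a1*, which delivers aminoacyl-tRNA, was at 3469 and 4970 RPKM in bulk cells, 4145 and 4884 in P1 and 3662 and 4444 in ALDH+ cells. For 27 initiation factors the medians were 0.05 and -0.09, with 7 higher and 8 lower in both tumors. Over all filtered genes 24.5% were higher and 22.9% lower in both, so these counts were near the background. For 9 other TOP mRNAs the medians were 0.10 and -0.20, with 2 higher and 3 lower. *Tpt1* and *Pabpc1*, 2 of these TOP mRNAs, were at 801 and 1601 and at 1890 and 1306 RPKM in bulk cells, and at 1025 and 1251 and at 1269 and 1130 in ALDH+ cells. The 81 filtered oxidative phosphorylation genes had medians of 0.02 and 0.35, the latter above the 0.31 of the ribosomal protein genes in tumor 2. The 44 ribosome biogenesis genes had medians of 0.05 and 0.05, and the 20 MYC and mTOR regulators -0.16 and 0.04. *Myc* was at 28.8 and 41.2 RPKM in bulk cells, 30.9 and 61.3 in P1 and 34.4 and 53.0 in ALDH+ cells, and *Larp1* at 118 and 74.2, 103 and 69.7, and 117 and 80.6. 

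**Figure D5:**
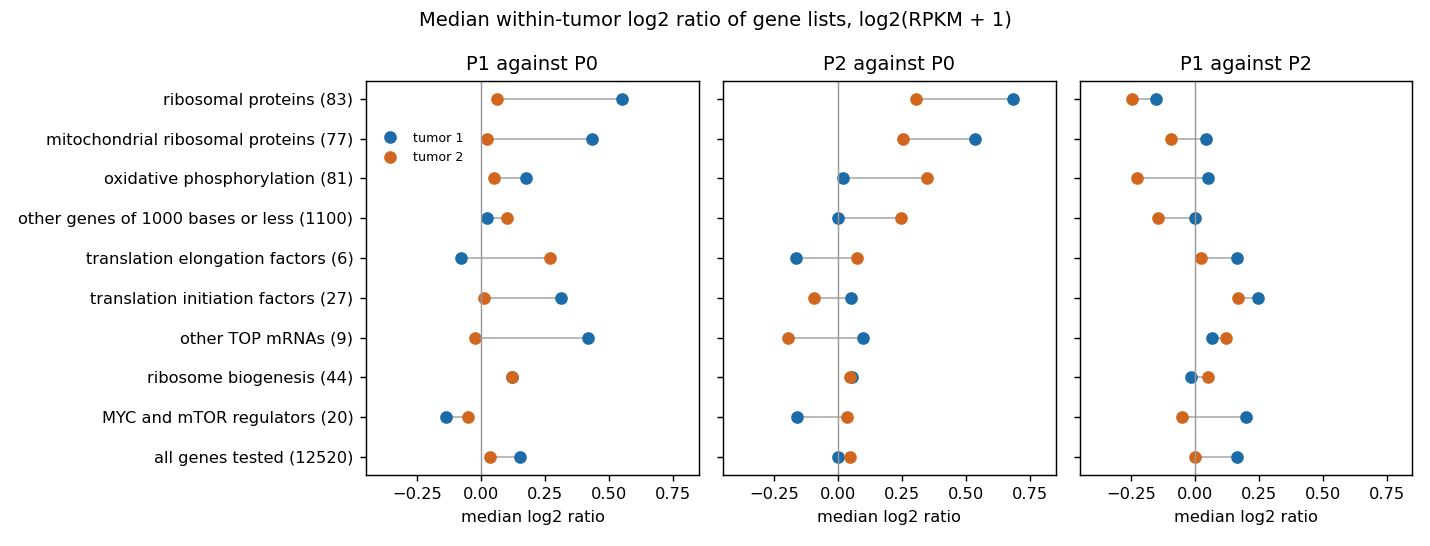
Median log2 ratio (x axis, log2(RPKM + 1) scale) over the tested genes of each list (y axis, number of genes in brackets) in tumor 1 and tumor 2, for the 3 comparisons. For P2 against P0 the ribosomal protein genes have the rightmost point (0.68 in tumor 1), while the elongation factors lie at -0.17 and 0.07 and the initiation factors at 0.05 and -0.09.

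Gene length moved with these ratios in tumor 2. The 1100 other genes of at most 1000 bases had median log2 ratios of P2 to P0 of 0.00 in tumor 1 and 0.25 in tumor 2, and genes over 4000 bases -0.08 and -0.09, whereas 64 of the 83 have at most 1000 bases. The 0.31 of the ribosomal protein genes in tumor 2 was thus close to that of short genes, and their 0.68 in tumor 1 was not. These sets were not matched for level. Of the 1208 other short genes in the table before the filter, 703 had no reads in at least 1 library, against 1 of the 83. The tumor 1 medians therefore cannot show whether length mattered less there. The part of length, or of RNA quality, in the result was not tested.

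The genes with a start tract were set beside those without one as a description. In P2 against P0, the 14 with a tract had median log2 ratios of 1.23 in tumor 1 and 0.26 in tumor 2, and the 49 others with a window 0.43 and 0.35. In P1 against P0 these were 0.71 and 0.13 against 0.55 and 0.06. In P2 against P0 the gap of tumor 1 was absent in tumor 2. Of the 10 genes with an unadjusted p under 0.05 in ALDH+ cells, 6 had a window and 4 of these a tract, namely *Rps10*, *Rplp2*, *Rpl14* and *Rpl15*, whose letters are printed above. None of the 5 with the lowest log2 fold change (*Rps27l*, *Rpl5*, *Rpl37a*, *Rpl12* and *Rpl36a*) had one. Of all 63 genes with a window, 14 (22.2%) had one. Both sets are small and were picked by these same expression values, so a link between tract and level cannot be read from them.

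Tumor 2 was above tumor 1 in bulk cells for 74 of the 83 genes (89.2%, against 57.4% of filtered genes). In P1 and in ALDH+ cells it was above for 68 each (81.9%, against 48.0% and 58.7%). The median log2 difference between the tumors was 0.70 for bulk, 0.28 for P1 and 0.38 for ALDH+ cells, against 0.17, -0.03 and 0.21 over all filtered genes, so that in bulk cells the tumors differed by more than P2 and P0 did within tumor 2.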

How the data were processed

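RNA was measured in 6 libraries from 3 sorted populations of 2 tumors. Poly(A) RNA was made into libraries by the authors (PrepX mRNA kit) and sequenced on a HiSeq instrument. The study names only the standard Illumina pipeline for alignment, and the aligner's name and version, genome build, annotation and counting are not given in the sources used here. The authors deposited RPKM for 14897 genes, with a normalized signal (their group means of reads divided by size factors, for P0 and P1) and their own fold change, log2 fold change and p-values of P1 against P0, which were not used. From RPKM and that signal, gene lengths and whole reads were recovered for 14896 genes, within 0.01 reads. Since RPKM are not counts, log2(RPKM + 1) was compared with limma (version 3.58.1, R version 4.3.3), using its intensity trend and all 6 libraries in one model without a block, over the 12520 genes that reached 1 RPKM in 2 or more libraries, with Benjamini-Hochberg adjustment over all of them and a threshold of 0.05. The fit was also run on simulated data that had no tumor effect and planted changes larger than the medians reported here. That run therefore does not show how differences of this size are recovered.

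The tumor number pairs the libraries per the labels. Deviations from the group means correlated between libraries of a tumor at 0.186 (P0 and P1), 0.212 (P0 and P2) and 0.242 (P1 and P2), and a fit with the tumor as a replicate block was run. Other alternatives were voom on recovered reads, other scalings, a pseudocount of 0.1, other filters and leaving out each library. The recovered reads of a library, summed over the genes measured, ran from 19037070 to 48008802. Counting error of the share of reads was small beside the difference between tumors. The sum of reads alone does not describe the noise. In each population the tumor 1 library had more recovered reads, yet 1947 to 3904 genes had no reads there, against 360 to 759 in tumor 2. Noise beyond counting error was not tested.

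The members, gene lists and tests were chosen with earlier results of these data known. Named genes were, in each comparison, the 5 with the highest and the 5 with the lowest log2 fold change, the 5 highest and 5 lowest by mean RPKM, paralogs, a list of genes with known extra roles and *Rps19bp1*. Others were named after their values were seen, such as *Rpl14* and *Rpl15*, and some genes are not reported here. P1 and P2 were each compared with the same P0 libraries. Promoter windows came from RefSeq (GRCm38.p6), matched by gene ID. Tables were handled in Python (3.11.15) with pandas (2.3.3) and numpy (2.4.6), intervals came from scipy (1.17.1) and plots from matplotlib (3.10.9).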

Additional observations from a re-analysis of the deposited data

How the results depend on the processing

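With 2 libraries in each population and adjustment over 12520 genes, a call needs a large and even difference. The first fit had no block, so the difference between tumors enters its SE. The P0 library of tumor 1 carries much of the result. The count of ribosomal protein genes called by limma at the adjusted threshold stayed at 0 in each comparison with the replicate block, voom, other scalings, the smaller pseudocount and other filters. Leaving out each library gave 0 to 1 calls for P1 against P2, the 1 being *Rps27l* without P2 of tumor 2, and 0 in the other comparisons. In these fits the lone library of a population was assumed to vary like the others. It was compared with libraries of both tumors, so the difference between tumors enters these values. The median log2 fold change of the 83 genes ranged from -0.13 to 0.65 for P1 against P0 over these fits. It was reversed, at -0.13, without P0 of tumor 1, although the ratios within tumor 2 had a median of 0.06. The median log2 fold change ranged from 0.12 to 0.75 for P2 against P0. For P1 against P2 it ranged from -0.385 to -0.026, where size factors by median of ratios gave -0.25. Quantile normalization moved the median of all genes for P1 against P0 from 0.12 to -0.02 and that of the 83 genes from 0.29 to 0.26. The replicate block left each of these medians as it was, and changed no call. Among the named genes, 117 values of the alternatives differed from the first by more than its SE and 2327 did not. Why these values differ was not tested.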
